A study of Mus musculus with 35 samples.

Results

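*Clec4f*, *Cd207*, *Clec1b*, *Clec4g* and *Fcna*, 5 lectin genes, were followed through bulk RNA-seq of sorted liver macs. They are 5 of the 54735 genes in the count files and were chosen on their CPM across the 6 groups of population, diet and week, so their levels and fold changes are given as a description, with no test. All 5 passed the filter on low counts (over 1 CPM in at least 5 samples), as did 13421 genes in all. CPM are counts scaled to the library total and to TMM factors, which adjust for differences in composition.

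The mice were male C57Bl/6J and were placed on their diets from 5 weeks of age. The Western diet (WD) was rich in fat and cholesterol with sugars in the drinking water, and control mice had a standard diet (SD). ResKCs, sorted as CLEC4F+TIM4+, came from the SD (n = 7) and the WD (n = 5) at 12 weeks and from the SD (n = 6) and the WD (n = 6) at 24 weeks. moKCs (CLEC4F+TIM4-, n = 5) and CLEC4F- macs (CLEC4F-TIM4-, n = 6) came from the WD at 24 weeks. For the 5 WD ResKC samples of 12 weeks the labels conflict, since the diet field gives the standard diet and the title the Western diet. The title was followed. In the study's methods n counts mice, though the labels do not name the mouse behind each sample. CLEC4F protein set the gate, so the *Clec4f* difference between CLEC4F+ and CLEC4F- cells is tied to the sort, and the CLEC4F- gate holds a mixture of cells. In bulk samples, fewer cells of a type and less RNA per cell cannot be told apart.

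C-type lectins are receptors that bind sugars on microbes, dying cells and glycoproteins through a shared fold. *Clec4f* encodes CLEC4F, a galactose-binding receptor and the surface marker of murine KCs. *Cd207* encodes langerin, an endocytic mannose receptor best known from Langerhans cells of the skin, where it forms Birbeck granules. *Clec1b* encodes CLEC-2, a receptor for podoplanin that signals through SYK and is prominent on platelets. *Clec4g* encodes LSECtin, best known from liver sinusoidal endothelial cells (LSECs). *Fcna* encodes ficolin A, a secreted lectin that starts the lectin pathway of complement.

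In GENCODE M21 (mm10), *Clec4f* (ENSMUSG00000014542.3) lies on chromosome 6 from 83644542 to 83656187 and *Cd207* (ENSMUSG00000034783.7) from 83671215 to 83677857, both on the minus strand. The pair is 15027 bases apart with no annotated gene between. *Clec1b* (ENSMUSG00000030159.15) lies on the same chromosome from 129397297 to 129409335 on the plus strand. *Clec4g* (ENSMUSG00000074491.9) lies on chromosome 8 from 3707064 to 3720651 and *Fcna* (ENSMUSG00000026938.10) on chromosome 2 from 25624666 to 25628030, both on the minus strand. *Clec1b* overlaps *Clec9a*, and *Clec4g* and *Fcna* overlap the antisense genes *Gm16553* and *Fcnaos*. How the counting treated strand is not given in the sources used here, so reads of such partners cannot be told apart. The partners held few counts in any sample. *Clec9a* had 4 to 161 counts against 1629 to 9616 of *Clec1b*, *Gm16553* had 0 to 2 against 347 to 3629 of *Clec4g*, and *Fcnaos* had 0 to 16 against 1289 to 51919 of *Fcna*.

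The promoters of *Clec4f*, *Cd207* and *Fcna* are shown because *Clec4f* and *Cd207* are neighbours whose levels parted, whereas *Fcna*, on another chromosome, had levels close in pattern to *Clec4f*. Each runs 5′ to 3′ from 250 bases before to 50 after the RefSeq start (GRCm38.p6, the assembly of mm10). Capitals mark matches to short motifs, searched on both strands: the PU.1 core is GAGGAA, the RBPJ core is TGGGAA, the SMAD element is CAGAC, the nuclear receptor motif is AGGTCA, the MAF motif is TGCTGA, the E-box is CACGTG, and the TATA box is TATAAA. No matches of different motifs overlapped in the 5 promoters.
Clec4f, chr6:83656067-83656366, minus strand: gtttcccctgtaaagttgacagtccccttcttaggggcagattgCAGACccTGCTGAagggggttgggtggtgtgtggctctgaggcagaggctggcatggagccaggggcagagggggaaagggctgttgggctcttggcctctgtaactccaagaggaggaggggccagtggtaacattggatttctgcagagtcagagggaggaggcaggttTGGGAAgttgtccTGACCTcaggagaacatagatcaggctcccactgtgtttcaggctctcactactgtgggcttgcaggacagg
Cd207, chr6:83677808-83678107, minus strand: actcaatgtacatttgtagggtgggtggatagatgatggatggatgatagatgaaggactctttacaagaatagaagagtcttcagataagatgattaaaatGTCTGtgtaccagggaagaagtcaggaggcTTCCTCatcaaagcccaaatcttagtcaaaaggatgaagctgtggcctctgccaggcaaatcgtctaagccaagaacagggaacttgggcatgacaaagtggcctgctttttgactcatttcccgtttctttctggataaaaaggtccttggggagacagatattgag
Fcna, chr2:25627925-25628224, minus strand: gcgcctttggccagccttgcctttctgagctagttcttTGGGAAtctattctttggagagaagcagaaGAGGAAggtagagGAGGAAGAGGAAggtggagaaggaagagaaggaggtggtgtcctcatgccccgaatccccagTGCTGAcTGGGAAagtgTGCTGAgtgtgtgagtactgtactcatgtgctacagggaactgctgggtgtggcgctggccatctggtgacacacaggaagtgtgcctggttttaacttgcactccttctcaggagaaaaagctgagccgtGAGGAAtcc
*Clec4f* held 1 match each to the RBPJ core, the SMAD element, the nuclear receptor motif and the MAF motif, and *Cd207* held 1 match each to the PU.1 core and the SMAD element. *Fcna* held 4 matches to the PU.1 core and 2 each to the RBPJ core and the MAF motif. Of 32851 RefSeq promoters of this length, 28.3% held the PU.1 core, 25.6% the RBPJ core, 49.6% the SMAD element, 16.3% the nuclear receptor motif and 19.5% the MAF motif. Among these motifs the *Clec1b* and *Clec4g* promoters held only the TATA box, with 2 matches and 1 match, and 13.6% of promoters held it. The E-box, found in 7.15% of promoters, was in none of the 5. A match is a run of letters, and binding was not measured.

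The sorted populations were first checked against marker genes. *Timd4*, the gene of TIM4, had 547 to 1358 CPM across the ResKC samples. In moKCs it had 2.85 to 30.3 CPM, and CLEC4F- macs had 3.43 to 14.6 CPM of it. The summed CPM of 18 KC markers ran from 35456 to 52897 in ResKCs, from 26973 to 32258 in moKCs and from 7793 to 22163 in CLEC4F- macs, with replicate 4 of the CLEC4F- macs the highest of its group. This replicate also had the lowest sum of 10 monocyte markers among the CLEC4F- macs, 733 CPM in a range that reached 2317. In WD ResKCs at 24 weeks, replicate 4 had a monocyte sum of 875 CPM, against 248.8 to 422 CPM in the others of its group, and the highest platelet sum of its group. Total counts ran from 11568590 to 15163845, so that 3 counts were worth 0.198 to 0.259 CPM, which covers counting error only. The file headers carry 2 naming schemes of the alignments, of unstated meaning, with 22 and 13 samples. The WD ResKCs of 12 weeks and the SD ResKCs of 24 weeks were wholly of the first scheme.

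*Clec4f* was among the most abundant transcripts of these cells. By mean CPM it ranked 3 among 13421 genes in each ResKC group, 5 in moKCs and 44 in CLEC4F- macs. It took 1.12 to 1.68% of the counts of a ResKC sample, 0.746 to 1.19% in moKCs and 0.0323 to 0.572% in CLEC4F- macs. To compare genes, levels were divided by exon length. In SD ResKCs at 24 weeks the mean level was 5852 CPM per kb for *Clec4f*, 2289 for *Fcna*, 447 for *Cd207*, 108 for *Clec1b* and 58.7 for *Clec4g*. In WD ResKCs at 24 weeks *Cd207* stood at 95.5 CPM per kb, below *Clec1b* at 102. In CLEC4F- macs *Cd207*, at 264 CPM per kb, stood above *Fcna*, at 208.

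**Figure D1:**
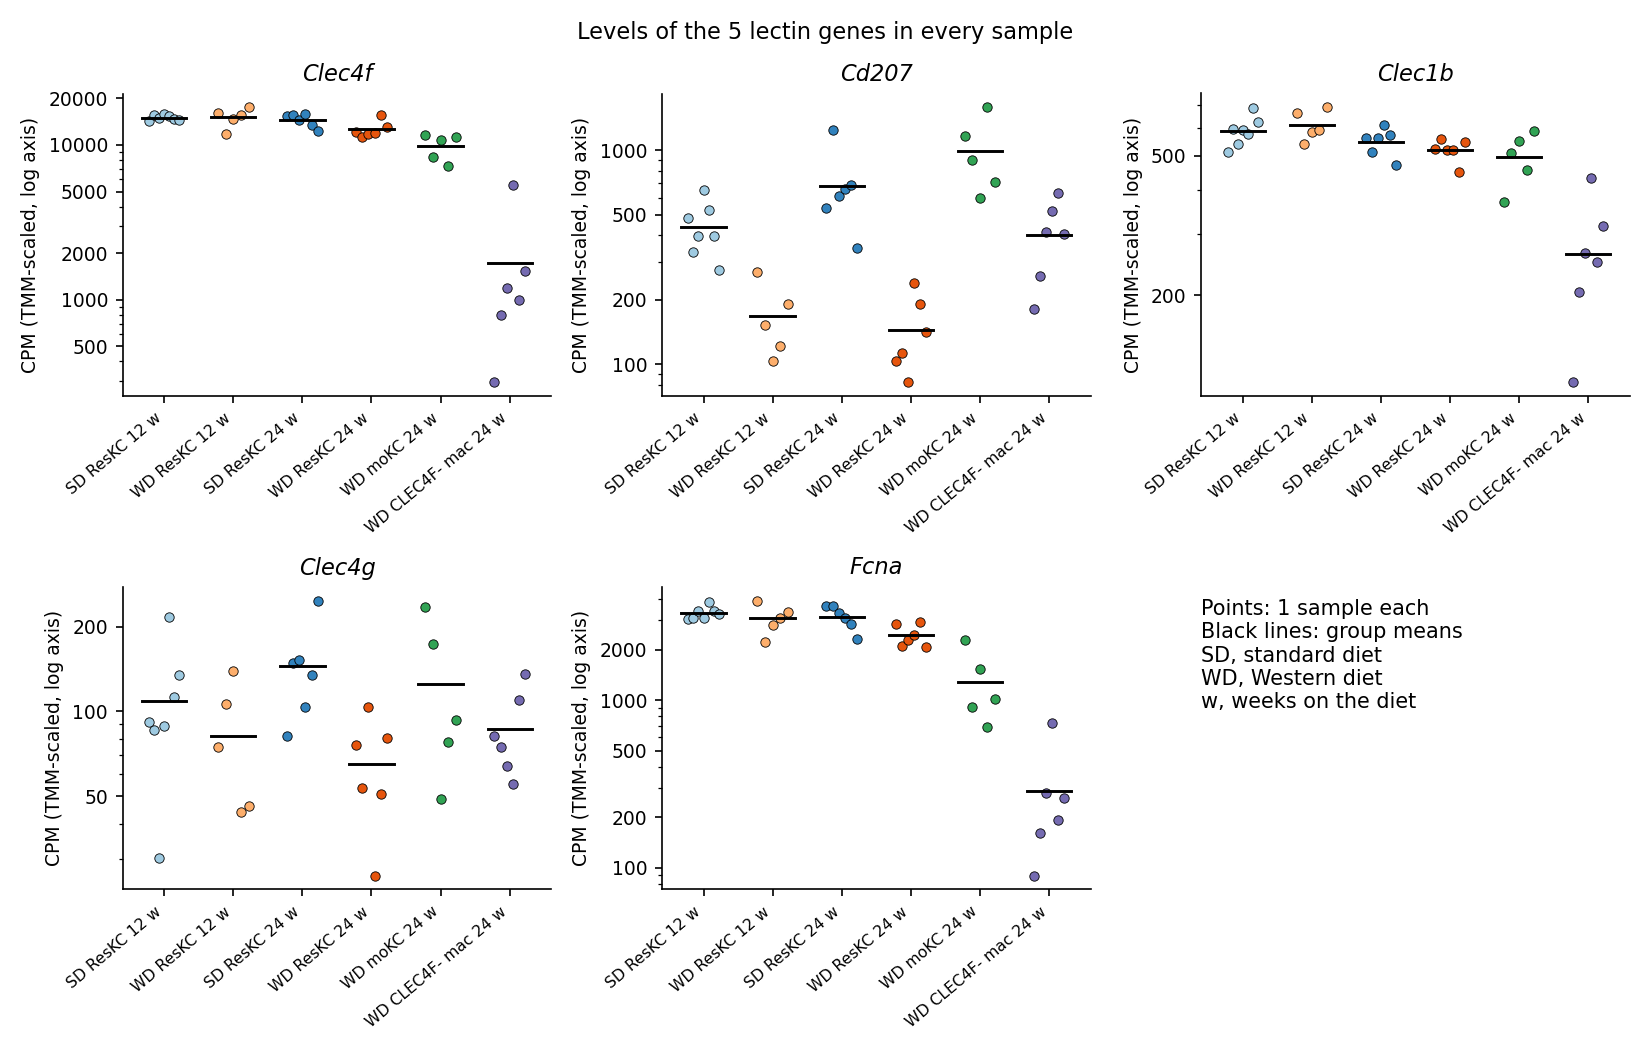
CPM (TMM-scaled, log axis) of the 5 lectin genes in each of the 35 samples by group, with 1 point for each sample and a line for each group mean. *Cd207* is lowest in both WD ResKC groups, *Clec4f*, *Clec1b* and *Fcna* are lowest in CLEC4F- macs, and *Clec4g* overlaps between all neighbouring groups in its order.

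*Clec4f* levels overlapped between the diets in ResKCs at both times. At 12 weeks the SD samples ran from 14197.6 to 15769.8 CPM with a median of 14829.8, and the WD samples had 15968, 11822, 14668, 15570.1 and 17495 CPM. The WD samples lay on both sides of the SD samples, with 2 above and 1 below them all (log2 fold change 0.01, SE 0.34). At 24 weeks the SD samples ran from 12316 to 15743 CPM with a median of 14843, and the WD samples from 11174 to 15581 CPM with a median of 12042. Of the 6 WD samples 4 lay below every SD sample (log2 fold change -0.20, SE 0.33). These standard errors come from the fit of all 6 groups, to whose spread the CLEC4F- macs contribute.

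*Clec4f* parted the CLEC4F+ cells from the CLEC4F- macs, in the direction of the gate. The moKC samples had 11619, 8317, 10720.2, 7326 and 11240.0 CPM, and the CLEC4F- mac samples ran from 294 to 5488 CPM with a median of 1093. Every WD ResKC and moKC sample lay above every CLEC4F- mac sample. The log2 fold change against CLEC4F- macs was 2.88 (SE 0.35) for WD ResKCs and 2.52 (SE 0.36) for moKCs. Replicate 4 held the CLEC4F- maximum and the other 5 samples reached at most 1539 CPM. Without it the log2 fold changes were 3.71 and 3.35. The ratio of WD ResKC to CLEC4F- mac means was 15.4 within the first naming scheme and 5.05 within the second, which holds replicate 4.

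moKCs had somewhat less *Clec4f* than ResKCs. Their mean was 9844 ± 1906 CPM (SD, n = 5), against a mean for the WD ResKCs at 24 weeks of 12622 ± 1579 CPM (SD, n = 6), and the groups overlapped (log2 fold change 0.36, SE 0.35). SD ResKCs at 24 weeks had 14459 ± 1370 CPM (SD, n = 6), and all 5 moKC samples lay below them (log2 fold change -0.55, SE 0.35). In the order of group means, moKCs and CLEC4F- macs were the only neighbours whose *Clec4f* levels did not overlap.

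*Cd207* was the member whose levels parted with the diet. At 12 weeks the SD samples ran from 275 to 651 CPM with a median of 399, and the WD samples had 271, 152, 104, 122 and 192 CPM. Every WD sample lay below every SD sample, although the nearest pair, at 271 and 275 CPM, almost met. The SD mean was 2.60 times the WD mean (log2 fold change -1.38, SE 0.32). Among the 5 members 1 had groups that did not overlap, against 0.499% of all genes tested. Within the first naming scheme the WD mean was 0.415 times the SD mean, against 0.384 times over all samples.

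The gap in *Cd207* was wider at 24 weeks. The SD samples ran from 348 to 1247 CPM with a median of 634, and the WD samples from 82.6 to 239 CPM with a median of 127. The groups were again apart, at 681 ± 302 and 145 ± 59.7 CPM (SD, n = 6 each), with the SD mean 4.68 times the WD mean (log2 fold change -2.23, SE 0.32). *Cd207* was again the 1 member of 5 whose groups did not overlap, against 4.11% of all genes tested. The WD samples of the first scheme, replicates 1 to 3, had 103, 112 and 82.6 CPM, and those of the second, replicates 4 to 6, had 239, 192 and 142 CPM. Within the first scheme the WD mean was 0.146 times the SD mean, against 0.213 times over all samples. Replicate 4, the WD sample highest in *Cd207*, was also highest in monocyte markers, and without it the log2 fold change was -2.43. Of the 9 monocyte markers that passed the filter 3 were called higher with the WD, *Fn1* (2.49), *Cx3cr1* (2.50) and *F13a1* (2.50), by edgeR's quasi-likelihood test at an adjusted p under 0.05 and a log2 fold change over 1, against 3.35% of all genes. 2 of the 9 lay below 0, *Ly6c2* (-0.32) and *Plac8* (-0.62). The sum of the monocyte markers ran from 192 to 246 CPM on the SD and from 248.8 to 875 CPM on the WD. *Fn1* alone reached 685.5 CPM on the WD, and its mean was higher in WD ResKCs at 24 weeks (259 CPM) than in CLEC4F- macs (192 CPM). The part of monocytes in the *Cd207* levels was not tested.

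Between 12 and 24 weeks the *Cd207* levels of ResKCs overlapped on either diet. On the SD the rank of *Cd207* by mean CPM among the genes tested went from 322 to 191, and 3 of 6 samples at 24 weeks lay above every sample at 12 weeks (log2 fold change 0.64, SE 0.29). On the WD the log2 fold change of 24 against 12 weeks was -0.21 (SE 0.32). Of the 5 members 0 had groups that did not overlap between the times, against 0.268% of all genes on the SD and 3.33% on the WD.

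Among the WD populations *Cd207* was highest in moKCs. Their samples had 1169, 899, 599.6, 1588 and 709.9 CPM, and all 5 lay above all 6 WD ResKC samples. The moKC mean was 6.84 times the WD ResKC mean, a log2 fold change of -2.77 (SE 0.33) for ResKCs against moKCs. The ResKC mean was 0.0962 times the moKC mean within the first naming scheme and 0.198 times within the second. *Cd207* was the 1 member of 5 whose groups did not overlap here, against 3.21% of all genes tested. moKCs and SD ResKCs at 24 weeks overlapped in *Cd207* (log2 fold change 0.55, SE 0.32). In that comparison *Clec4f* and *Fcna* were the 2 of 5 members apart, against 8.91% of all genes tested.

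CLEC4F- macs held *Cd207* at an intermediate level, from 181 to 629.99 CPM with a median of 412. Of their 6 samples 5 lay above every WD ResKC sample (log2 fold change of ResKCs against CLEC4F- macs -1.47, SE 0.31), and the exception was replicate 1. Of the 5 moKC samples 4 lay above every CLEC4F- mac sample (log2 fold change 1.30, SE 0.32). Thus *Cd207* and *Clec4f*, though neighbours, had opposite signs between WD ResKCs and CLEC4F- macs. By group mean *Cd207* ran from moKCs through SD ResKCs at 24 weeks, SD ResKCs at 12 weeks, CLEC4F- macs and WD ResKCs at 12 weeks to WD ResKCs at 24 weeks, and each pair of neighbours in that order overlapped.

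Langerin is also carried by some dendritic cells, so their markers were set beside *Cd207*. *Flt3*, a defining receptor of conventional dendritic cells, had 0 to 1.57 CPM in all ResKC and moKC samples and 1.05 to 15.4 CPM in CLEC4F- macs. The summed CPM of 10 dendritic cell markers, 9 of which passed the filter, ran from 128 to 239 in SD ResKCs at 24 weeks, 151 to 192 in WD ResKCs at 24 weeks, 131 to 249.8 in moKCs and 148 to 443 in CLEC4F- macs. The highest sum belonged to CLEC4F- mac replicate 1, which had the lowest *Cd207* of its group. The sum depends largely on *Wdfy4*, with group means of 106 to 129 CPM, and *Dpp4*. *Dpp4* had a mean of 59.8 CPM in SD and 31.8 CPM in WD ResKCs at 24 weeks. In that comparison 6 of the 9 tested lay above 0 and 3 below. Only *Clec9a*, which overlaps *Clec1b*, was called by edgeR, higher on the WD (means 4.53 and 1.71 CPM). The part of dendritic cells in the *Cd207* levels was not tested.

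*Clec1b* was even across ResKCs and moKCs and lower in CLEC4F- macs. Its means were 590.2 ± 55.6 CPM (SD, n = 7) on the SD and 614 ± 60.7 CPM (SD, n = 5) on the WD at 12 weeks, and 549 ± 49.9 and 521 ± 38.6 CPM (SD, n = 6 each) at 24 weeks. WD and SD samples overlapped at both times (log2 fold changes 0.06, SE 0.17, and -0.08, SE 0.16). The moKC samples had 370.3, 510.5, 551, 456 and 591 CPM, and the CLEC4F- mac samples ran from 113 to 432 CPM with a median of 256. All WD ResKC samples at 24 weeks lay above all CLEC4F- mac samples (log2 fold change 0.99, SE 0.17). moKCs overlapped the CLEC4F- macs through moKC replicate 1 and CLEC4F- mac replicate 4 (log2 fold change 0.92, SE 0.17). Between WD ResKCs and CLEC4F- macs 3 of 5 members were apart, *Clec4f*, *Clec1b* and *Fcna*, against 16.0% of all genes tested, and between moKCs and CLEC4F- macs 1 of 5, *Clec4f*, against 8.16%.

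Platelet genes were set beside *Clec1b* because platelets carry CLEC-2. Of 10 platelet and megakaryocyte markers 3 passed the filter, and *Gp1bb*, a subunit of the platelet receptor for von Willebrand factor, was at 0 in all 35 libraries. The summed CPM of the list ran from 12.4 to 100.8 in ResKCs, 52.0 to 132 in moKCs and 94.98 to 178 in CLEC4F- macs. *Pf4*, a platelet chemokine, made up most of it, at 130.4 ± 33.5 CPM (SD, n = 6) in CLEC4F- macs, where *Ppbp* was next with a mean of 1.11 CPM. The sum is thus close to a measure of *Pf4* alone. *Itga2b*, another of the list, had a higher mean in moKCs (1.25 CPM) than in CLEC4F- macs (0.610 CPM). The part of platelets in the *Clec1b* levels was not tested.

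*Fcna* followed the order of *Clec4f* among the populations but was already lower in moKCs. SD ResKCs had 3316 ± 286 CPM (SD, n = 7) at 12 weeks and 3145 ± 502 CPM (SD, n = 6) at 24 weeks. WD ResKCs had 3091 ± 623 CPM (SD, n = 5) and 2451 ± 370 CPM (SD, n = 6) and overlapped the SD at both times (log2 fold changes -0.10, SE 0.30, and -0.36, SE 0.29). The moKC samples had 2286, 914, 1530.2, 696 and 1021 CPM. Of these, 4 lay below every WD ResKC sample, and replicate 1 lay among them (log2 fold change of ResKCs against moKCs 0.93, SE 0.31). All 5 lay below every SD ResKC sample at 24 weeks (log2 fold change -1.29, SE 0.31). The CLEC4F- mac samples ran from 89.4 to 733 CPM with a median of 226, and replicate 4 was again far above the others, which reached 277 CPM. The log2 fold change against CLEC4F- macs was 3.10 (SE 0.32) for WD ResKCs and 2.18 (SE 0.31) for moKCs, and 3.64 and 2.72 without replicate 4.

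**Figure D2:**
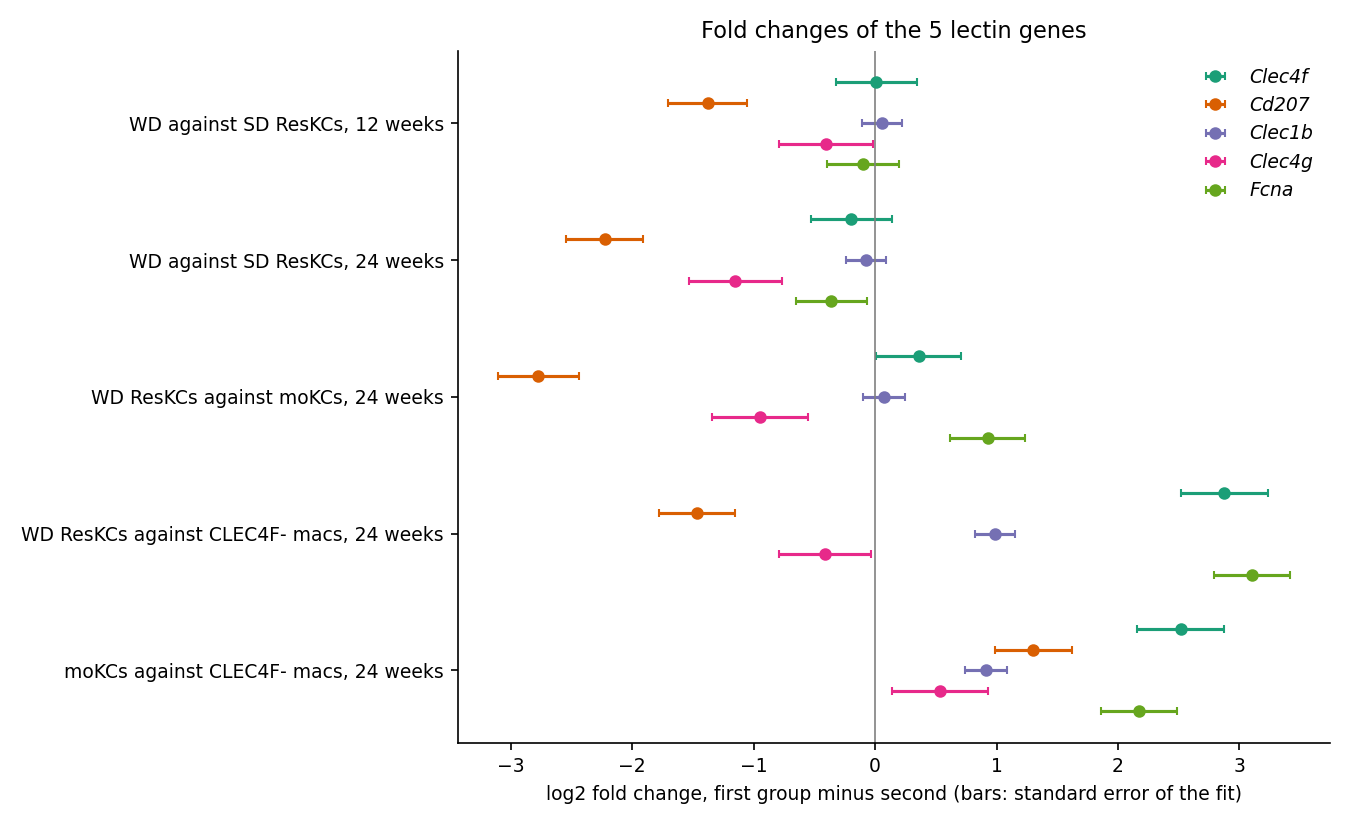
Log2 fold changes of the 5 lectin genes (x axis, first group minus second) in the 5 comparisons (y axis), with bars for the standard error of the fit of all samples. *Cd207* runs from -2.77 to 1.30, and between WD ResKCs and CLEC4F- macs it lies on the other side of 0 from *Clec4f* at 2.88 and *Fcna* at 3.10.

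Ratios of counts within a library do not depend on its scaling. *Fcna* had 22.1 ± 1.93 counts in 100 *Clec4f* counts (SD, n = 7) in SD ResKCs at 12 weeks and 19.5 ± 2.49 (SD, n = 6) in WD ResKCs at 24 weeks. In CLEC4F- macs the ratio was 20.5 ± 5.86 (SD, n = 6), although both genes were several-fold lower there, and in moKCs it was 12.7 ± 4.40 (SD, n = 5). *Clec1b* had 2.88 to 5.01 counts in 100 *Clec4f* counts across the ResKC samples, 3.19 to 6.23 in moKCs and 7.87 to 38.4 in CLEC4F- macs. The CLEC4F- macs thus lay above all other samples in this ratio, although *Clec1b* itself was lower there. CLEC4F protein set the gate, so the ratios to *Clec4f* in CLEC4F- macs are tied to the sort. *Cd207* had 1.15 ± 0.462 counts in 100 *Clec4f* counts (SD, n = 6) in WD ResKCs and 4.64 ± 1.81 (SD, n = 6) in SD ResKCs at 24 weeks, 10.9 ± 6.44 (SD, n = 5) in moKCs and 38.0 ± 20.8 (SD, n = 6) in CLEC4F- macs. *Cd207* outnumbered *Clec1b* in every moKC and CLEC4F- mac sample, at 109 to 348 and 121 to 254 counts in 100 *Clec1b* counts, whereas in WD ResKCs at 24 weeks it had 15.8 to 45.9.

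**Figure D3:**
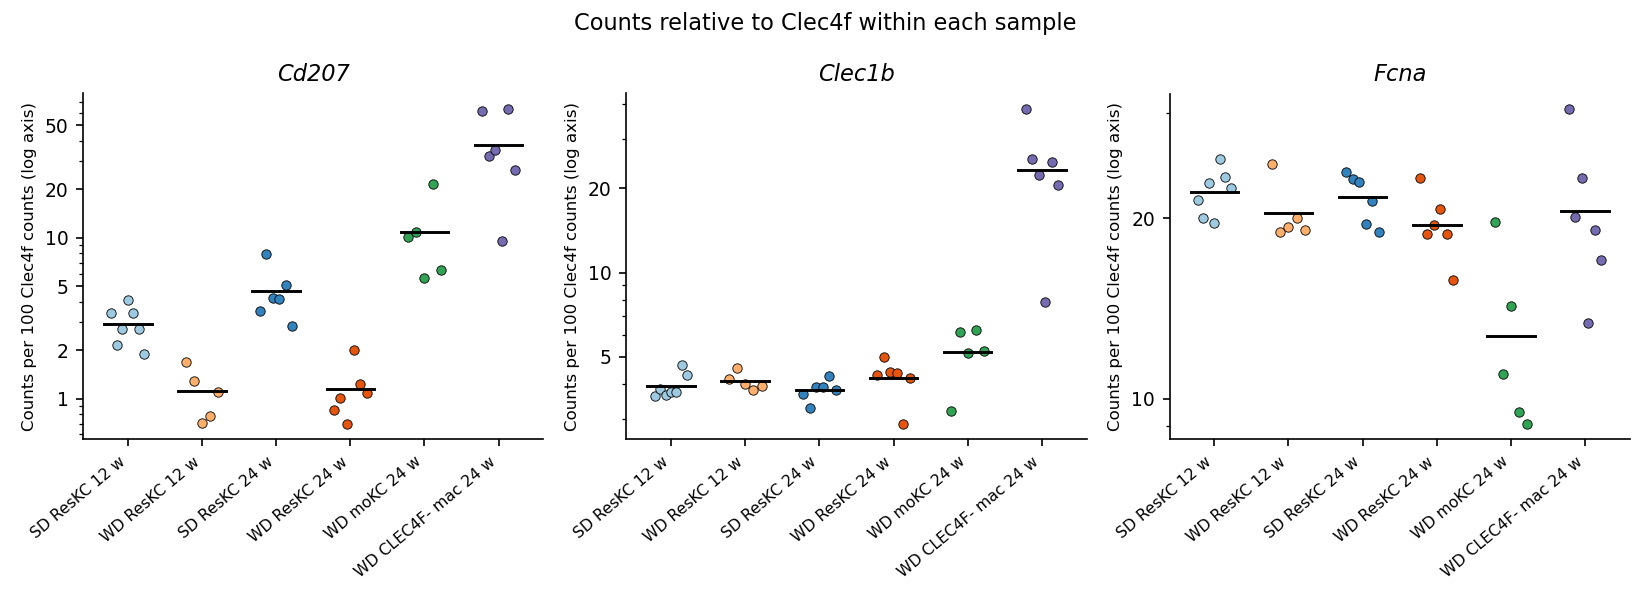
Counts of *Cd207*, *Clec1b* and *Fcna* in 100 *Clec4f* counts of the same sample (log axis), by group, with 1 point for each of the 35 samples and a line for each group mean. *Clec1b* in CLEC4F- macs, at 7.87 to 38.4, lies above all other samples, whereas *Fcna* in CLEC4F- macs, at 13.3 to 30.4, overlaps the ResKCs. The gate was set on CLEC4F, so the ratios in CLEC4F- macs are tied to the sort.

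*Clec4g* was the scarcest member and did not set any population apart. SD ResKCs at 12 weeks ran from 30.2 to 216 CPM with a median of 91.9, and the WD samples had 74.6, 106, 139, 44.1 and 46.1 CPM (log2 fold change -0.41, SE 0.39). The direction depended on the naming scheme. Within the first scheme the WD mean was 1.18 times the SD mean, against 0.755 times over all samples. At 24 weeks the SD samples ran from 81.9 to 247 CPM with a median of 141, and the WD samples from 26.1 to 104 CPM with a median of 64.8. Of the 6 WD samples 5 lay below every SD sample, and the groups overlapped through WD replicate 3 (log2 fold change -1.15, SE 0.38). The moKC samples had 234, 173, 49.0, 77.7 and 93.0 CPM, and CLEC4F- macs ran from 55.1 to 135 CPM with a median of 78.1. The moKC mean was 2.77 times the CLEC4F- mac mean within the first scheme and 0.731 times within the second. CLEC4F- macs thus held *Clec4g* at levels that overlapped those of WD ResKCs (log2 fold change -0.41, SE 0.38).

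LSECtin is best known from LSECs, so markers of these cells were set beside *Clec4g*. The summed CPM of 18 LSEC markers, all of which passed the filter, ran from 1101 to 2937 in SD and from 632 to 1546 in WD ResKCs at 24 weeks. In 5 of 6 groups the sample highest in *Clec4g* was also the highest in this sum, and in 4 of 6 the lowest sample was the same. *Clec4g* stood at 8.03 ± 0.902% of the sum (SD, n = 6) in SD ResKCs and at 5.66 ± 1.04% (SD, n = 6) in WD ResKCs at 24 weeks. This percentage depends in part on *Stab2*, the largest of the 18 in both groups (means 359 and 345 CPM), which hardly moved with the diet (-0.06). *Stab2* (1.54) and *Pecam1* (1.01) were the 2 LSEC markers called higher in WD ResKCs than in CLEC4F- macs, against 10.4% of all genes called. Of the 18 LSEC markers 17 had a log2 fold change below 0 with the WD at 24 weeks, with a median of -0.86 and 1 called lower, against 3.35% of all genes called. The median log2 fold change of all genes lay between -0.02 and 0.02 in each of the 5 comparisons. The part of LSECs in the *Clec4g* levels was not tested.

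**Figure D4:**
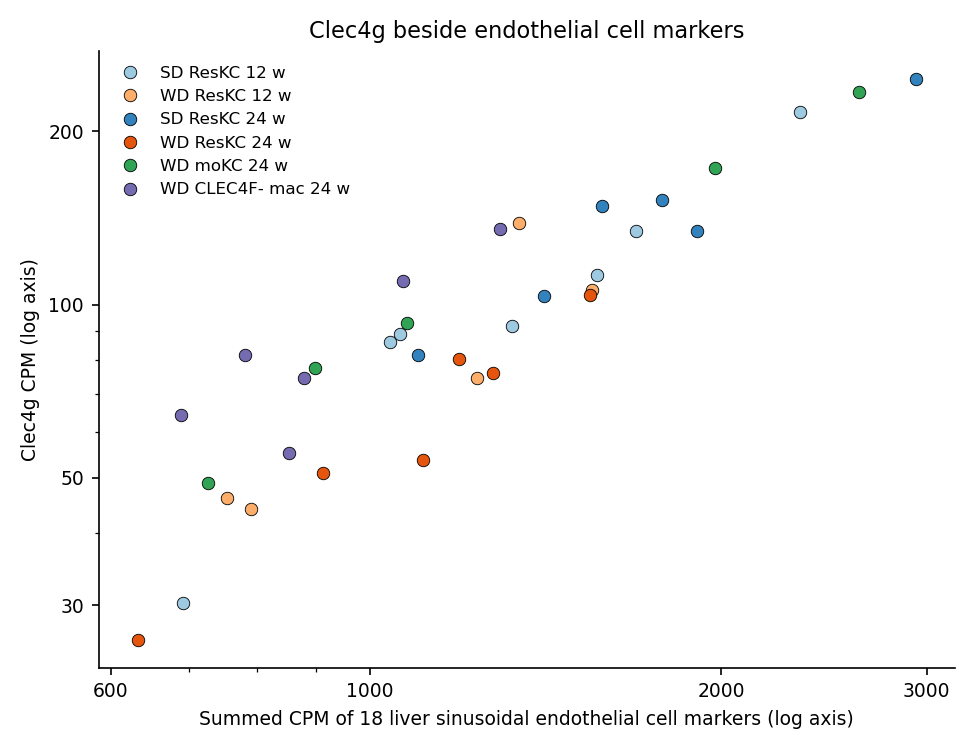
*Clec4g* CPM against the summed CPM of 18 liver sinusoidal endothelial cell markers, both on log axes, with 1 point for each of the 35 samples, coloured by group. The sample highest in *Clec4g* is also highest in the sum in 5 of 6 groups, and the WD ResKC samples at 24 weeks have 4.13 to 6.73% of the sum, below the 7.04 to 9.39% of the SD ResKC samples. The sum includes *Stab2*, its largest part in both of these groups, which hardly moved with the diet.

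The genes with the pattern most like each member were found by the root mean square difference of log2 CPM over 35 samples, after centring each gene, where 0 would be an identical pattern. For *Clec4f* these were *Chp2* (0.25), *Folr2* (0.26), *Kcnj16* (0.32), *Fam167a* (0.36) and *Ccdc148* (0.37), with *Fcna* (0.37) behind these 5. For *Fcna* they were *Chp2* (0.34), *Pcolce2* (0.34), *Fam167a* (0.36), *Kcnj16* (0.38) and *Nid2* (0.38), with *Clec4f* closer than all but 3 genes. The mean level of *Folr2*, a folate receptor, was 95.8 CPM in WD ResKCs at 24 weeks, and went from 70.6 CPM in moKCs to 14.6 CPM in CLEC4F- macs. For *Clec1b* they were *Il18bp* (0.13), which encodes a secreted inhibitor of interleukin 18, *B3galnt1* (0.18), *Fer* (0.19), *Serpinb6a* (0.19) and *Dhrs1* (0.20). *Folr2*, *Pcolce2* and *Il18bp* were also among the 18 KC markers.

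*Cd207* had no close companion. The nearest genes were *Layn* (0.82), *Bvht* (0.84), *Mansc1* (0.85), *Efemp1* (0.87) and *Angptl6* (0.89), and none of them had a group mean above 7.64 CPM. *Clec4f*, its neighbour on the chromosome, differed from it by 1.82, with 12833 genes closer. For *Clec4g* the nearest genes were *Cyp4b1* (0.19), *Ehd3* (0.19), *Igfbp7* (0.19), *Tspan7* (0.20) and *Aqp1* (0.20). *Aqp1*, a water channel, was among the LSEC markers, and *Igfbp7* is known as an endothelial product.

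The genes beside *Clec4f* and *Cd207* were tested in the same comparisons. Within 250 kb of the pair 31 other genes are annotated, and 7 passed the filter. Between WD ResKCs and CLEC4F- macs edgeR's quasi-likelihood test called 0 of 7, as did DESeq2 and limma-voom, against 10.4% of all genes, and 3 were at an unadjusted p under 0.05, as were 5559 of all 13421 genes. With so few neighbours these counts are near those of all genes. *Nagk*, an enzyme of amino sugar salvage, had a log2 fold change of 0.50 (SE 0.08, adjusted p = 3.43e-06) and *Tet3*, a DNA demethylase, of -0.78 (SE 0.17, adjusted p = 0.00055), both under the fold limit. The other 5 lay between -0.09 and 0.19. For comparison, *Clec4f* and *Cd207* had log2 fold changes of 2.88 and -1.47.

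**Figure D5:**
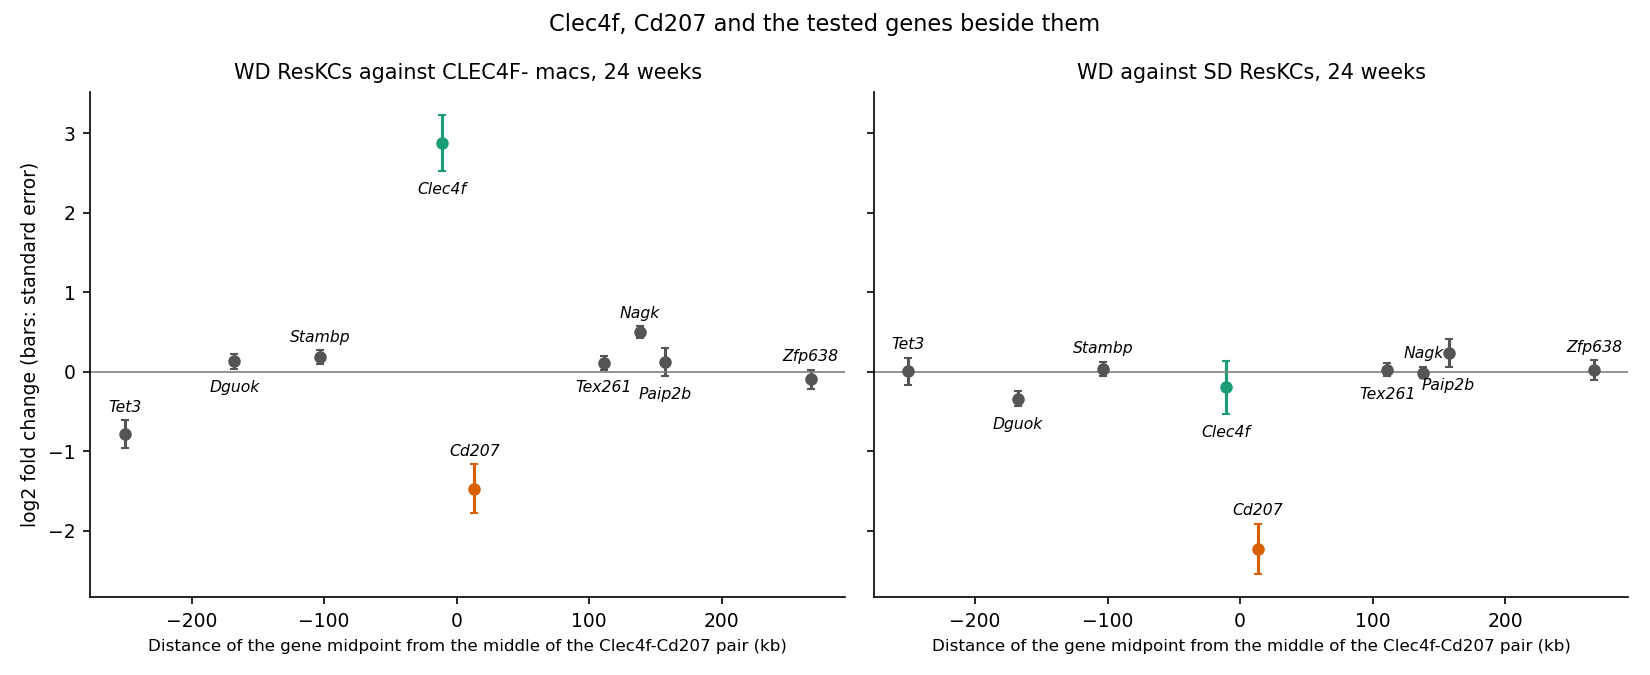
Log2 fold change with its standard error (y axis) of *Clec4f*, *Cd207* and the 7 tested genes within 250 kb, against the distance in kb from the middle of the pair (x axis), for WD ResKCs against CLEC4F- macs (left) and WD against SD ResKCs (right), both at 24 weeks. The 7 neighbours lie between -0.78 and 0.50 on the left, where *Clec4f* is at 2.88 and *Cd207* at -1.47, and *Cd207* is at -2.23 on the right.

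The other C-type lectins, 46 genes of which 40 passed the filter, were tested in the same comparisons. With the WD at 12 weeks 0 of 40 were called by edgeR, DESeq2 or limma-voom, as were 0.0% of all genes by edgeR, with 5 of 40 and 1172 of all genes at an unadjusted p under 0.05. With the WD at 24 weeks 3 rose and 2 fell, against 3.35% of all genes called, with a list median of 0.08. *Selp*, the adhesion lectin P-selectin of platelets and endothelium, rose from 0.945 ± 0.787 to 11.8 ± 9.89 CPM (SD, n = 6 each), with a log2 fold change of 3.64 (SE 0.59, edgeR adjusted p = 0.000187). Its WD samples, at 4.86 to 30.6 CPM, all lay above its SD samples. Of the 3 platelet markers that passed the filter, *Pf4* rose as well (1.11, adjusted p = 0.0363) and *Itga2b*, a platelet integrin, fell (-2.68, adjusted p = 0.0209), both by edgeR. *Ppbp*, the remaining marker, lay below 0 and was not called (-0.93). The platelet sum ran from 17.8 to 27.8 CPM on the SD and from 16.8 to 100.8 CPM on the WD, where *Pf4* alone reached 99.0 CPM. Of the 18 LSEC markers 17 lay below 0 in this comparison. The part of platelets and LSECs in the *Selp* levels was not tested. The test of the difference between the diet effects at 24 and 12 weeks passed for 0 of 67 genes of the 3 lists by edgeR, with 16 at an unadjusted p under 0.05, and for 38 of all 13421 genes.

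In both comparisons with the CLEC4F- macs most of the C-type lectins called were higher in the CLEC4F- macs. Scarce genes can pass the filter through the CLEC4F- macs alone, which favours that direction. ResKCs against moKCs gave 2 higher and 2 lower of 40, against 1.39% of all genes, with a median of -0.28, and without moKC replicate 4 the count was 2. *Cd209f*, of the DC-SIGN family, was higher in ResKCs at 9.10 ± 5.80 CPM (SD, n = 6) than in moKCs at 0.570 ± 0.915 CPM (SD, n = 5), with a log2 fold change of 3.90 (SE 0.86, edgeR adjusted p = 0.00744), a call that limma-voom did not make. *Cd209g*, its relative, was called at a level under 3 counts in every moKC library (0 to 0.129 CPM, edgeR adjusted p = 0.0394) and lost the call in 9 of 18 other settings. Reads of such close paralogs may be shared, so their values are uncertain.

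ResKCs against CLEC4F- macs gave 2 higher and 15 lower of 40 C-type lectins, against 10.4% of all genes called, with a median of -0.84. *Cd93*, a receptor of monocytes and endothelium, was lower in ResKCs at 12.3 ± 3.96 CPM than in CLEC4F- macs at 235 ± 54.8 CPM (SD, n = 6 each, log2 fold change -4.24, SE 0.35, edgeR adjusted p = 5.62e-11). *Cd209a* (-5.29), *Clec4e*, the receptor Mincle (-3.79), and *Cd69*, a leukocyte activation marker (-3.39), were lower as well, and *Cd209a* is also 1 of the 10 dendritic cell markers. Lymphocytes carry some of these lectins, and of the 8 markers of T, B and NK cells all 5 that passed the filter were called lower in ResKCs, with a median of -2.20. Such scarce genes can pass the filter through the CLEC4F- macs alone, so their shared direction is in part set by the filter. *Klrb1c*, 1 of the 5, stayed under 1 CPM in every ResKC sample. The summed CPM of the 8 markers ran from 5.95 to 8.91 in WD ResKCs at 24 weeks, 7.42 to 13.6 in moKCs and 15.3 to 118 in CLEC4F- macs. It was highest in CLEC4F- mac replicate 1, which was also the highest in *Cd209a*, *Cd69* and *Mgl2*, and its part in these levels was not tested. moKCs against CLEC4F- macs gave 1 higher and 9 lower, against 5.05% of all genes, with a median of -0.34, and the count was 6 without moKC replicate 2 and 5 without CLEC4F- mac replicate 1. *Mgl2*, a galactose-type lectin (-5.22), *Cd93* (-3.22) and *Klrb1b*, an NK receptor gene (-2.15), were lower in moKCs, though *Klrb1b* lost its call in 13 of 18 other settings. *Mgl2* and *Klrb1b* stayed under 1 CPM in every moKC sample (at most 0.716 and 0.5995 CPM), so their direction here is in part set by the filter. *Mrc1*, the mannose receptor, was higher in moKCs at 1146 ± 194 CPM (SD, n = 5) than in CLEC4F- macs at 522 ± 189.5 CPM (SD, n = 6), with a log2 fold change of 1.13 (SE 0.16, edgeR adjusted p = 3.83e-06), and of 0.99, under the limit, without CLEC4F- mac replicate 1.

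The soluble lectins and the lectin pathway of complement, on which ficolin A acts, held 16 genes, of which 13 passed the filter. The list also includes *Colec12*, which is a receptor rather than a soluble lectin. With the WD 0 of 13 were called by edgeR, DESeq2 or limma-voom at either time, against 0.0% of all genes at 12 weeks and 3.35% at 24 weeks by edgeR. At an unadjusted p under 0.05 by edgeR were 0 of 13 at 12 weeks and 6 at 24 weeks, beside 1172 and 3331 of all 13421 genes. At 24 weeks 1 was called without WD ResKC replicate 4. ResKCs against moKCs gave 2 higher, against 1.39% of all genes, and 4 without moKC replicate 1, with a median of -0.05. These were *C2*, a protease of the C3 convertase, at 53.3 ± 15.3 CPM (SD, n = 6) in ResKCs against 2.05 ± 0.660 CPM (SD, n = 5) in moKCs (log2 fold change 4.69, SE 0.26, edgeR adjusted p = 6.59e-15), and *Colec12*, a scavenger receptor collectin, at 183 ± 80.8 against 8.60 ± 4.24 CPM (log2 fold change 4.40, SE 0.35). ResKCs against CLEC4F- macs gave 4 higher, against 10.4% of all genes, *C2* (5.31), *Colec12* (5.02), *C4b* (3.86) and *C4a* (1.86), with a median of 0.31. *C4a* and *C4b* are close copies, and *C4a* stood near 1 CPM or below, so its value is uncertain. moKCs against CLEC4F- macs gave 2 higher, *C4b* (2.61) and *Cfb*, the factor B gene (1.32), against 5.05% of all genes, with a median of 0.45. *C4b* had 1512 CPM in moKC replicate 1 and 165 to 279 CPM in the others, and without that replicate its log2 fold change was 1.48, still called.

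The partners of CLEC-2 in signalling held 15 genes, of which 14 passed the filter. Its ligand gene *Pdpn* did not pass it. With the WD 0 of 14 were called by edgeR, DESeq2 or limma-voom at either time, with 1 and 4 at an unadjusted p under 0.05 at 12 and 24 weeks, and ResKCs against moKCs gave 0 with 5. The shares of all genes called were 0.0, 3.35 and 1.39%, and 1172, 3331 and 2135 of all 13421 genes were at an unadjusted p under 0.05. ResKCs against CLEC4F- macs gave 1 higher and 2 lower, against 10.4% of all genes, with a median of 0.24. *Vav3*, an exchange factor, was lower in ResKCs at 23.8 ± 4.33 CPM than in CLEC4F- macs at 59.5 ± 9.47 CPM (SD, n = 6 each, log2 fold change -1.32, SE 0.15, edgeR adjusted p = 1.52e-08). *Blnk*, an adaptor, was lower as well (-1.14), and *Src*, a kinase, was higher (1.16) but fell to 0.98, under the limit, without WD ResKC replicate 6. moKCs against CLEC4F- macs gave 1 lower, *Blnk* (-1.64), against 5.05% of all genes, with a median of 0.12, and 2 called without moKC replicate 2.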

How the data were processed

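RNA of 35 samples of sorted liver macs was sequenced as single reads. Per the labels and the methods, the authors aligned reads to mm10 with HISAT2 2.2.0 and deposited raw counts for each gene from featureCounts 2.0.0, with FastQC 0.11.9 and SAMtools 1.10 also named in the submitters' processing notes. Which annotation was counted, whether strand was used and how multi-mapped reads were treated is not given in the sources used here. The gene IDs were placed with GENCODE M21.

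The 13421 of 54735 genes with more than 1 CPM in 5 or more samples were kept, and their deposited counts were scaled with TMM factors and fitted over all 6 groups with edgeR 4.0.16 (quasi-likelihood, R 4.3.3). Genes were called at a Benjamini-Hochberg adjusted p under 0.05 over all genes and an absolute log2 fold change over 1. DESeq2 1.42.0, limma-voom (limma 3.58.1), no filter, scaling by library size, a fit of the compared groups alone, a replicate block, other limits, the naming scheme and leaving out each replicate were alternatives. The scripts were tested on simulated data. The members and lists were chosen with earlier results of these data known. Named list genes were at most 4 called genes in a list and comparison, those with the largest change whose groups did not overlap, and likeness used a prior count of 2. The depth of 11568590 to 15163845 counts makes 3 counts worth 0.198 to 0.259 CPM.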

Additional observations from a re-analysis of the deposited data

Results flagged for a closer look

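In groups of 4 to 10 samples, Dixon's ratio at the 95% level was used to find samples far from the rest of their group. Of 71 pairs of gene and group 11 held such a sample, and of the 30 pairs of the 5 lectin genes 3 did. Chance gives about 1 in 20 groups only for independent values with a normal spread. CPM of genes in the same samples need not be so, and no excess over chance is read from these counts. *Clec4f* was 5488 CPM in CLEC4F- mac replicate 4, with the other samples at 294 to 1539 CPM, and *Fcna* was 733 CPM in the same sample, with the others at 89.4 to 277 CPM. *Vav3* was lowest there, at 40.2 CPM against 62.4 to 64.5 CPM. *Clec1b* was 449 CPM in WD ResKC replicate 5 at 24 weeks, below the others at 521 to 559.9 CPM, and *Cd93* was 4.73 CPM in that sample against 12.2 to 15.5 CPM. *Cd209a* (121 CPM), *Cd69* (29.96 CPM) and *Mgl2* (39.1 CPM) were each highest in CLEC4F- mac replicate 1, with the next samples at 43.9, 8.86 and 13.3 CPM. *C4b* (1512 CPM) and *Cd209f* (2.19 CPM) were highest in moKC replicate 1, with the next samples at 279 and 0.285 CPM. *C2* was 23.4 CPM in WD ResKC replicate 4 at 24 weeks, below the others at 51.4 to 63.3 CPM.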

How the results depend on the processing

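Of the 144 list counts under settings other than leaving out a replicate, 129 stayed within 1.5 times the value given and 15 did not, and no called value reversed. With limits of 1.5 and 0.01, C-type lectins gave 3 (diet, 24 weeks), 5 (moKCs against CLEC4F- macs) and 1 (ResKCs against moKCs), soluble lectins 1 (moKCs against CLEC4F- macs) and CLEC-2 partners 0 (ResKCs against CLEC4F- macs). With no fold limit C-type lectins gave 10 (diet, 24 weeks), CLEC-2 partners 3 (diet, 24 weeks), 9 (ResKCs against CLEC4F- macs) and 6 (moKCs against CLEC4F- macs), and the neighbouring genes 2. limma-voom gave 1 C-type lectin for ResKCs against moKCs. The replicate block gave 3 (diet, 24 weeks), 4 (moKCs against CLEC4F- macs) and 2 (ResKCs against moKCs) C-type lectins and 0 soluble lectins (moKCs against CLEC4F- macs), and moved no other list count by over 1.5 times. Under it the calls of *Cd209f*, *Cd209g* (ResKCs against moKCs), *C4b*, *Cfb*, *Klrb1b* and *Mrc1* (moKCs against CLEC4F- macs) were lost. The mean correlation of the deviations of same-numbered samples was -0.12 to 0.12 over 5 comparisons. It was highest for ResKCs against CLEC4F- macs, where all 6 pairs lay above 0 (0.02 to 0.26). In no comparison did every pair pass 0.1, and the labels do not say what the numbers share. The cause of these shifts was not tested, beyond the limits' own construction.

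Leaving out 1 replicate moved the C-type lectin counts to 2 to 5 for ResKCs against moKCs and to 5 to 11 in the comparison of moKCs with CLEC4F- macs. It moved soluble lectins to 0 to 1 for the diet at 24 weeks and 2 to 4 for ResKCs against moKCs, and CLEC-2 partners to 1 to 2 for moKCs against CLEC4F- macs. Of 175 member fold changes under other settings 171 moved by less than 1 SD, as did 290 of 290 without 1 replicate. With the naming scheme as a covariate *Clec4f* had a log2 fold change with diet of 0.27 at 12 and -0.44 at 24 weeks, and *Clec1b* of 0.22 and -0.21. Near 0, the sign changed for *Clec4f* at 12 weeks in 4 settings and 4 left-out replicates, and once each for *Clec1b* at 24 weeks, *Fcna* at 12 weeks and *Clec1b* in ResKCs against moKCs. By longest transcript *Clec1b* had 126 and *Clec4g* 100.2 CPM per kb in SD ResKCs at 24 weeks. With a prior count of 0.5, the 5 genes most like each member were the same. Counts under 3 in a library cannot be told from 0 at this depth.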
